A study of Mus musculus with 6 samples.

Results

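The genes of the proteasome were compared between brains of mouse embryos from diabetic and untreated mothers. Members were all genes whose annotated symbol begins with Psma to Psmg and a number. They are 48 of the 12393 genes named on the arrays, and 45 had a mean signal of at least 100 and entered the comparison with 8627 genes in all. By symbol, 18 encode the core particle, 20 the regulatory cap, and 8 the activators, the inhibitor and the assembly chaperones. The pattern also took in Psmc3ip, a factor of meiotic recombination, and Psme3ip1, a protein named for its binding to Psme3, which are not proteasome subunits.

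The 6 arrays each held the RNA of a single Swiss Albino embryonic brain at stage E11.5. The 3 control brains came from untreated mothers, and the 3 diabetic brains came from mothers made diabetic with streptozotocin, which destroys the insulin-producing beta cells of the pancreas. Diabetic brains were also malformed ones, so effects of the mother's diabetes and of the malformation cannot be told apart. Nothing in the labels says whether brains shared a litter, and p-values then measure the spread between these samples only. Replicates 1 and 2 of both groups form the first table, on MOE430A chips, and replicate 3 of both groups forms the second, on Mouse430A_2 chips, so each difference was taken within a table. In whole brain RNA, fewer cells of a type and less RNA per cell cannot be told apart.

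The proteasome is the protease that degrades proteins tagged with ubiquitin. Its barrel-shaped core is built of alpha rings, which gate the entrance, and beta rings, of which Psmb5, Psmb6 and Psmb7 carry the protein-cutting sites. The cap binds ubiquitin chains, removes them, and uses its ring of ATPases to unfold the substrate and feed it to the core. In cells exposed to interferon, Psmb8, Psmb9 and Psmb10 take the place of the catalytic subunits, and the resulting particle favours peptides for antigen presentation. Dividing progenitors and new neurons both depend on the proteasome, to remove cyclins and to turn over regulators of differentiation and axon growth.

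Proteasome transcripts had log2 changes mostly above 0 in the diabetic group, and none passed the test. Of the 45 tested members, 36 lay above 0 and 9 below, with a median log2 change of 0.14 and a range from -0.26 to 0.48. Without Psmc3ip and Psme3ip1, which the pattern also took in, 35 of 43 lay above 0, with a median of 0.14. Over all genes tested, 52.2% lay above 0 and the median was 0.012. Adjusted over all 8627 genes, limma called 0 members, as it called 0% of all genes, and the smallest adjusted p among the members was 0.607. At an unadjusted p under 0.05, limma counted 4 members on the higher side, Psmc5, Psmd3, Psmc1 and Psmb2, and 0 on the lower, where 3.73% of all genes were counted higher and 3.91% lower. These 4 are 8.89% of the members tested.

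Diabetic arrays lay above the control arrays of their table, with no overlap in either table, for 13 members, or 28.9%, where 11.3% of all genes tested did so. They lay below for 1 member, Psma5, or 2.22%, where 10.6% of all genes did so. Mean signals of the tested members ran from 162 to 8165, and genes of high signal tended slightly upward as a whole. Of the 905 genes whose mean signal reached 2000, 60.0% lay above 0 with a median of 0.047, and among the 26 members of that class, 21 lay above 0 with a median of 0.13.

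**Figure D1:**
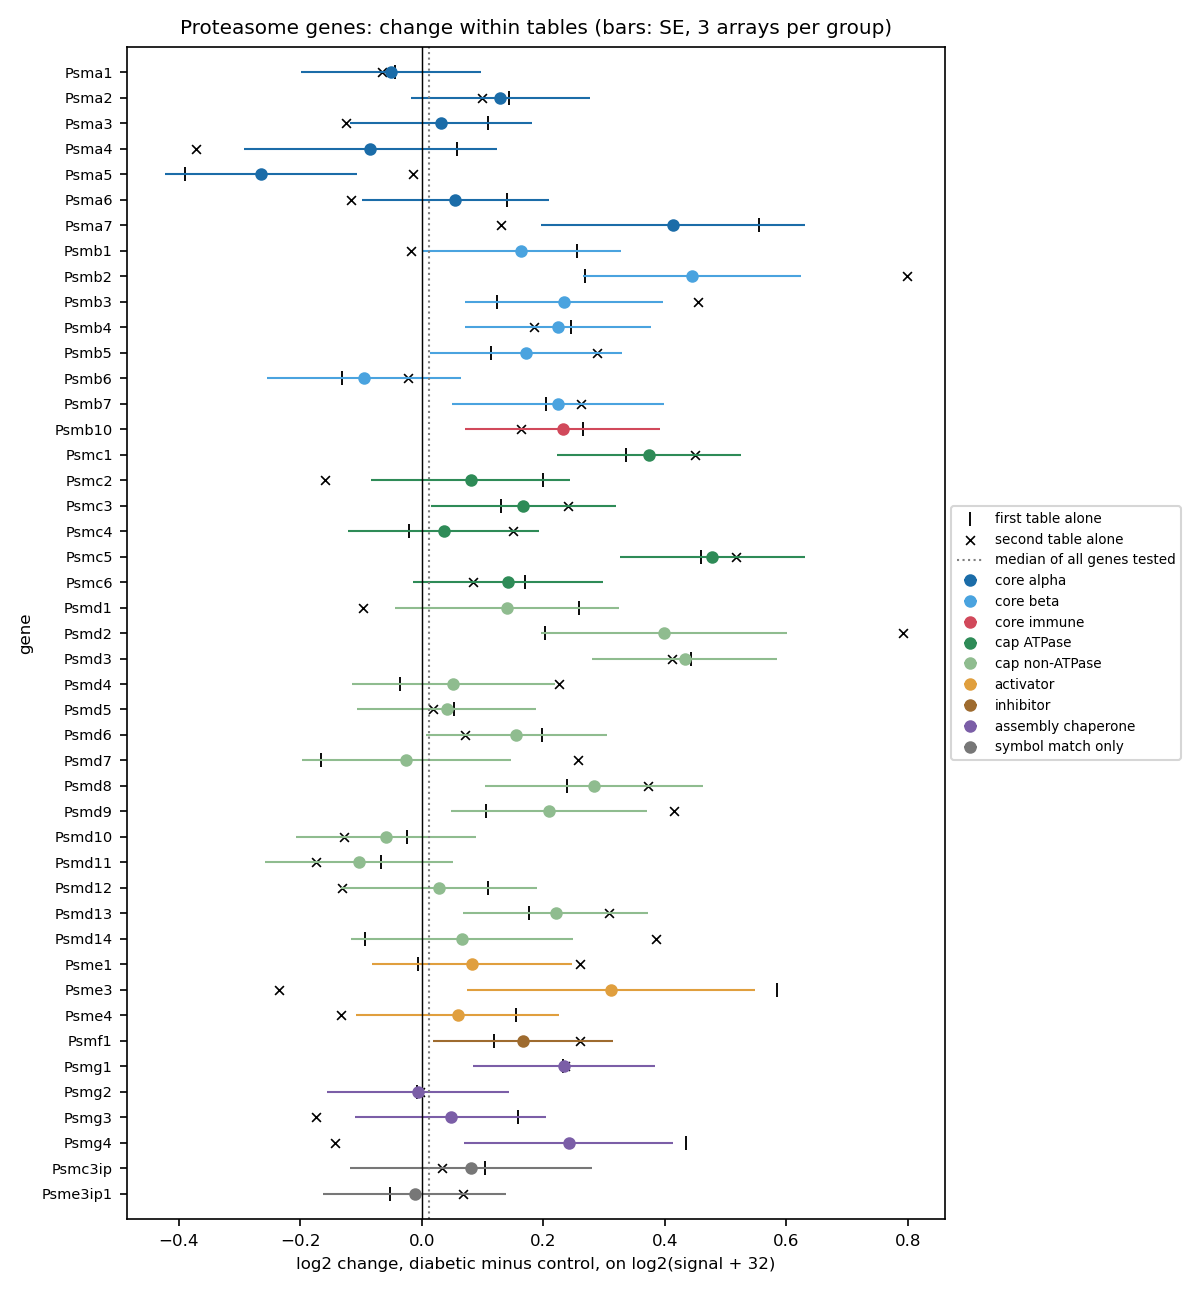
Log2 change (diabetic minus control, on log2(signal + 32)) of each of the 45 tested genes, coloured by role, with the standard error of the fit as a bar. Vertical ticks give the first table alone and crosses the second, and 36 points lie above 0, from Psma5 at -0.26 to Psmc5 at 0.48.

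Among the core particle genes, 15 were tested and 11 lay above 0, with a median of 0.16, which became 0.096 without diabetic replicate 2. The alpha and beta genes had different medians, a difference that was not tested. The 7 alpha genes, structural and gating subunits, had a median of 0.032, with 4 above 0 and 3 below, and medians from 0.00028 (without diabetic replicate 2) to 0.11 (first table alone) with arrays left out. The 7 beta genes beside the immune forms had a median of 0.22, with 6 above 0 and Psmb6 below.

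Psmb2, a beta subunit without a cutting site, had signals of 2132, 2707 and 1054 on the control arrays and 2972, 2829 and 1858 on the diabetic arrays, each in the order of replicates 1 to 3. Each diabetic array was above the control arrays of its table, although the control array of the second table was low. Its log2 change was 0.45 ± 0.18 (SE, 3 arrays per group), or 1.36-fold, with a limma adjusted p of 0.647. The first table alone gave 0.27 and the second 0.80.

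Psma7, an alpha subunit, had signals of 1865, 3241 and 2867 on the control and 3581, 3679 and 3141 on the diabetic arrays. Control replicate 1 stood far below the other arrays, and the log2 change of 0.41 ± 0.22 (SE) became 0.15 without it. The limma adjusted p was 0.678. The other probe set of Psma7, with a mean signal of 2481, had a log2 change of -0.0081.

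Psma5, another alpha subunit, was the member with the lowest change. Its signals were 2882, 2759 and 5125 on control and 2065, 2227 and 5076 on diabetic arrays, so the groups lay apart in the first table and nearly met in the second. The log2 change was -0.26 ± 0.16 (SE), with a limma adjusted p of 0.701, and its other probe sets, with mean signals of 2448 and 35.1, had 0.12 and -0.028.

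Psmb4, a beta subunit without a cutting site, gave 3488, 4112 and 4937 on control and 4358, 4634 and 5614 on diabetic arrays, higher in the diabetic group within each table. Its log2 change was 0.22 ± 0.15 (SE), and its second probe set, with a mean signal of 2072, had -0.34. Psma2 signals were 4422, 4363 and 4002 on control and 4688, 5032 and 4288 on diabetic arrays, a small shift without overlap of 0.13 ± 0.15 (SE). The limma adjusted p was 0.729 for Psmb4 and 0.829 for Psma2.

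The catalytic subunits overlapped between the groups. Psmb5, which cuts after bulky residues, had signals of 3794, 3811 and 2260 on control and 4550, 3724 and 2767 on diabetic arrays, and diabetic replicate 2 lay just below the controls of its table. Psmb6, which cuts after acidic residues, had 3534, 2947 and 3863 on control and 2729, 3179 and 3803 on diabetic arrays. Psmb7, which cuts after basic residues, had 6622, 8778 and 7226 on control and 9822, 7870 and 8675 on diabetic arrays. In both Psmb6 and Psmb7 the control and diabetic arrays of the first table interleaved. Log2 changes were 0.17 ± 0.16 (SE) for Psmb5, -0.095 ± 0.16 for Psmb6 and 0.22 ± 0.17 for Psmb7, with limma adjusted p of 0.788, 0.881 and 0.748. With each array left out in turn, Psmb5 ran from 0.11 to 0.27, Psmb6 from -0.16 to -0.010 and Psmb7 from 0.11 to 0.35.

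The immune forms had low signals. Psmb8 had signals of 21.7, 10.8 and 4.70 on control and 11.1, 8.17 and 6.35 on diabetic arrays. Psmb9 had 35.0, 83.7 and 34.8 on control and 59.1, 37.2 and 29.7 on diabetic arrays. Both stayed under 100 on every array, as did Psma8, an alpha subunit known from testis, with 17.8 to 71.5, so these 3 members were not tested, and no detection call was used here. Psmb10 was the only immune form that was tested. Its signals were 144, 185 and 110 on control and 217, 190 and 127 on diabetic arrays, without overlap within tables, although diabetic replicate 2 lay just above control replicate 2. Its log2 change was 0.23 ± 0.16 (SE) with a limma adjusted p of 0.729, and 0.13 without control replicate 1.

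**Figure D2:**
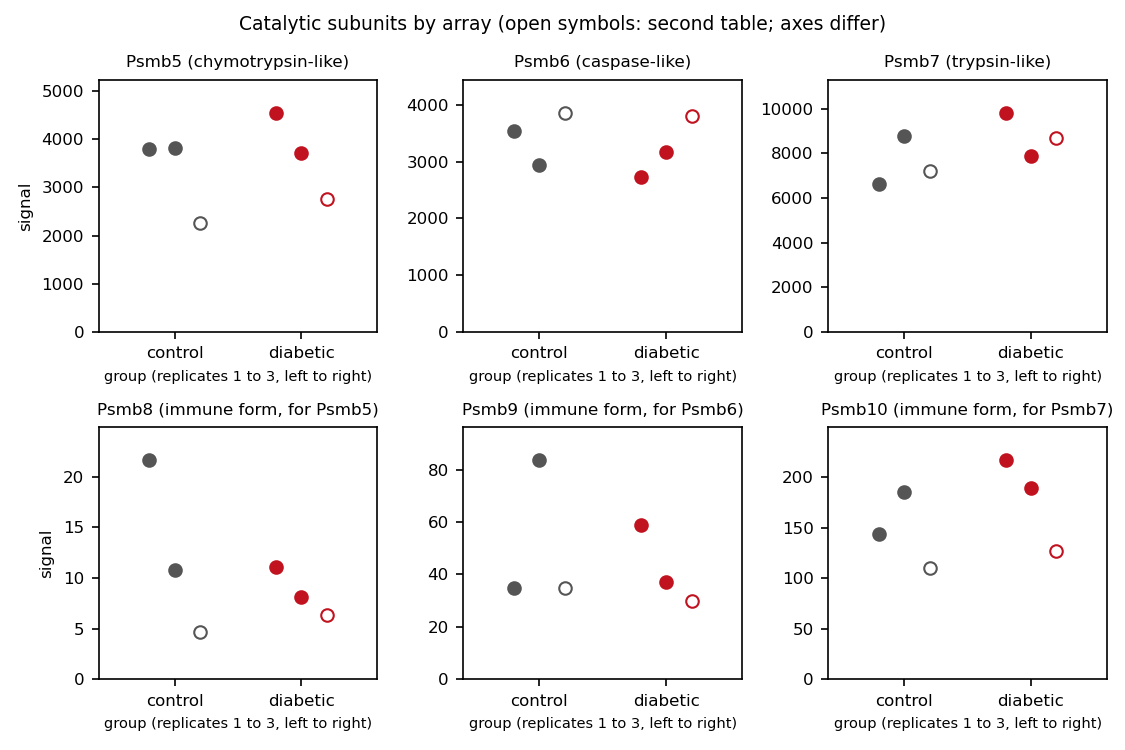
Signal of the catalytic subunits (upper panels) and of the immune form that replaces each (lower panels) on the 6 arrays, on linear axes that start at 0 and differ between panels. Filled symbols are the first table and open symbols the second. Psmb8 and Psmb9 stay under 100 on all arrays, and Psmb10 is the immune form in which diabetic arrays lie above the controls of their table.

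The remaining core genes had log2 changes from -0.085 to 0.23. Psmb3 had 0.23 ± 0.16 (SE) and Psmb1 0.16 ± 0.16, both beta subunits without a cutting site. The alpha genes Psma1, Psma3, Psma4 and Psma6 lay between -0.085 and 0.055, and Psma4 had a first-table value of 0.058 and a second-table value of -0.37.

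The regulatory cap had 17 of its 20 genes above 0, with a median of 0.14. All 6 ATPase genes, Psmc1 to Psmc6, lay above 0, with a median of 0.15, a lowest value of 0.036 for Psmc4 and a highest of 0.48 for Psmc5. With single arrays left out, Psmc2 and Psmc4 crossed 0, and Psmc6 had -0.20 with the mean of all its probe sets. Of the 14 Psmd genes, 11 lay above 0 and the median was 0.10.

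Psmc5 had the highest change among the members. Its signals were 1823, 1955 and 1735 on control and 2432, 2794 and 2496 on diabetic arrays. The groups lay apart in both tables. The control mean was 1837 ± 111 (SD, n = 3) and the diabetic mean 2574 ± 193 (SD, n = 3). The log2 change was 0.48 ± 0.15 (SE), or 1.39-fold, and the tables gave 0.46 and 0.52. Leaving out each array in turn gave 0.43 to 0.54. The limma adjusted p was 0.607.

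Psmc1, a further ATPase, had signals of 1335, 1465 and 1507 on control and 1688, 1864 and 2071 on diabetic arrays. Its groups also lay apart in both tables. The log2 change was 0.37 ± 0.15 (SE), or 1.30-fold, and leaving out each array in turn gave 0.34 to 0.42. The limma adjusted p was 0.647. Psmc3 had 2443, 2479 and 2755 on control and 2505, 2905 and 3259 on diabetic arrays, above the controls of each table but by little on diabetic replicate 1. Its log2 change was 0.17 ± 0.15 (SE), with a limma adjusted p of 0.786.

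Psmd3, a structural subunit of the lid part of the cap, had signals of 1386, 1568 and 855 on control and 1905, 2130 and 1148 on diabetic arrays. The groups lay apart in both tables, and the second table was lower throughout. The log2 change was 0.43 ± 0.15 (SE), or 1.35-fold, with table values of 0.44 and 0.41 and a limma adjusted p of 0.612.

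Psmd2, a large scaffold subunit that docks ubiquitin carriers, had 3173, 4019 and 2428 on control and 3501, 4830 and 4225 on diabetic arrays. Here diabetic replicate 1 lay between the controls of its table, and the change was larger in the second table, 0.79 against 0.20. The log2 change was 0.40 ± 0.20 (SE), with a limma adjusted p of 0.661. The lid subunits Psmd13 and Psmd6 also had diabetic arrays above the controls within each table. Psmd13 signals were 1263, 1434 and 1364 on control and 1465, 1588 and 1697 on diabetic arrays, and those of Psmd6 were 3346, 3084 and 3600 against 3694, 3683 and 3784. Their log2 changes were 0.22 ± 0.15 (SE) and 0.16 ± 0.15.

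Psmd4, a ubiquitin receptor, had a log2 change of 0.052 ± 0.17 (SE), and Psmd14, which clips the chain off the substrate, had 0.066 ± 0.18. The first-table value of Psmd14 was -0.093 and the second-table value 0.39. Psmd7, the partner of Psmd14, had -0.025 ± 0.17, Psmd10 -0.058 ± 0.15 and Psmd11 -0.10 ± 0.15. These last were the 3 cap genes below 0, and Psmd7 lay above 0 without control replicate 2 and without diabetic replicate 2. Psmd5, Psmd9 and Psmd10, which help to assemble the base of the cap and are not part of the finished particle, had 0.041, 0.21 and -0.058. The other Psmd genes, Psmd1, Psmd8 and Psmd12, had 0.14, 0.28 and 0.029.

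Activators, the inhibitor and the assembly chaperones had 7 of 8 genes above 0, with a median of 0.12, which became 0.065 with the mean of all probe sets of a gene. The activator ring gene Psme1, the only one of the Psme1 and Psme2 pair with a probe set of its own, had a log2 change of 0.083 ± 0.16 (SE). Psme2 shared its probe set with Psme2b and was not used. Psme3, which encodes a nuclear activator, had signals of 405, 687 and 615 on control and 860, 761 and 518 on diabetic arrays. It was higher on both diabetic arrays of the first table and lower on that of the second, and its log2 change of 0.31 ± 0.24 (SE) became 0.028 without control replicate 1. Psme4, another nuclear activator, had 0.059 ± 0.17, and -0.060 without control replicate 1.

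Psmf1, an inhibitor protein of the core, had signals of 782, 740 and 479 on control and 850, 809 and 580 on diabetic arrays, without overlap within tables. Its log2 change was 0.17 ± 0.15 (SE), against -0.24, -0.27 and 0.44 for its other probe sets of mean signal 254, 279 and 86.5. Psmg1 starts the assembly of the alpha ring with Psmg2. It had 1175, 1297 and 1139 on control and 1401, 1513 and 1347 on diabetic arrays. Within each table its diabetic arrays lay above the controls. Its log2 change was 0.23 ± 0.15 (SE), with a limma adjusted p of 0.711. Psmg4 had 957, 970 and 949 on control and 1257, 1372 and 857 on diabetic arrays, higher in the first table and lower in the second, and a log2 change of 0.24 ± 0.17. Psmg2 had -0.0063 ± 0.15 and Psmg3 0.048 ± 0.16. Limma gave Psme3, Psmf1 and Psmg4 adjusted p of 0.745, 0.783 and 0.734. Of the genes that share only the symbol pattern, Psmc3ip had 0.081 ± 0.20 and Psme3ip1 -0.012 ± 0.15.

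Taken over all 45 tested members, the median difference from the control mean of the same table was 0.10 on diabetic replicate 1, 0.13 on diabetic replicate 2 and 0.099 on diabetic replicate 3, with 34, 33 and 28 of 45 members above it. Subsets were less even across these arrays, given in the same order. Cap genes had medians of 0.031, 0.20 and 0.23, core genes 0.15, 0.13 and 0.099, and the activators, inhibitor and chaperones 0.17, 0.18 and -0.068. The Psmd genes of the cap had -0.0012 on diabetic replicate 1. Control arrays also differed from each other. Control replicate 1 lay below control replicate 2 for 30 of 45 members, with a median difference of -0.13, a size like that between the groups. For 28 members, or 62.2%, this difference between control arrays was larger than the log2 change between groups, as it was for 59.5% of all genes. Control replicate 1 also had the highest signal of the control probe set for 18S ribosomal RNA, 7891 against 101 to 265 on the others, whose part in the result was not tested. Without control replicate 1 the members' median was 0.13, with 34 of 45 above 0.

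**Figure D3:**
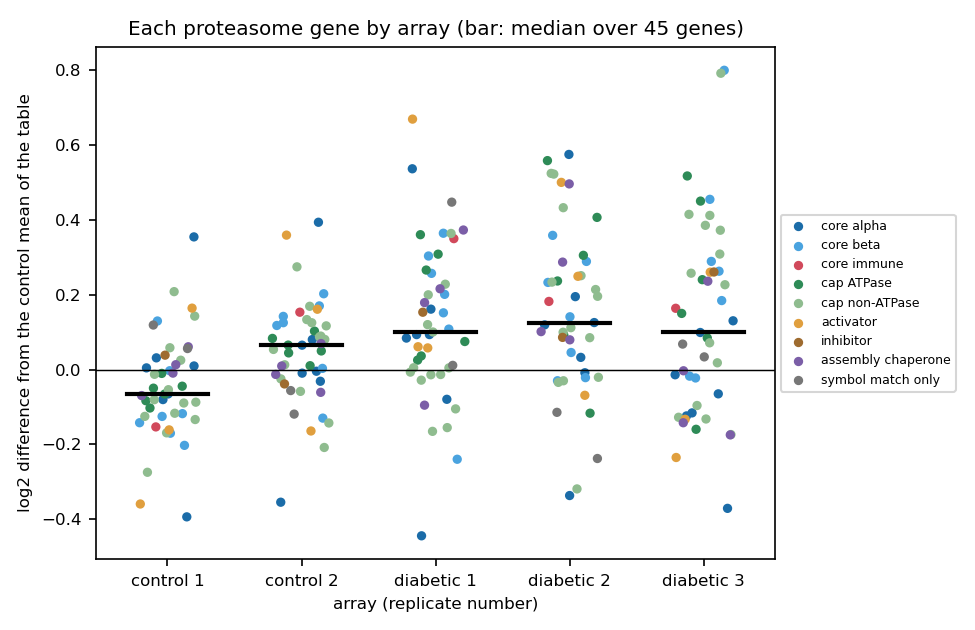
Log2 difference of each of the 45 tested genes from the mean of the control arrays in the same table, for control replicates 1 and 2 and diabetic replicates 1 to 3, with the median as a bar. Control replicate 3 is the lone control of its table and is 0 by construction. Diabetic medians lie between 0.099 and 0.13, and those of the 2 control arrays lie on either side of 0, a median difference of -0.13 apart.

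Changes in the first and in the second table had the same sign for 28 members, or 62.2%, and for 51.5% of all genes. In 22 members both were above 0, in 6 both were below and in 17 they differed in sign. Core betas and cap genes had medians above 0 in both tables, 0.20 and 0.26 for the 7 beta genes and 0.15 and 0.23 for the 20 cap genes. The alpha genes had medians of 0.11 and -0.065, first table first, and the activators, inhibitor and chaperones 0.16 and -0.068. No test of the difference between tables was made, and the second table holds 1 array per group.

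**Figure D4:**
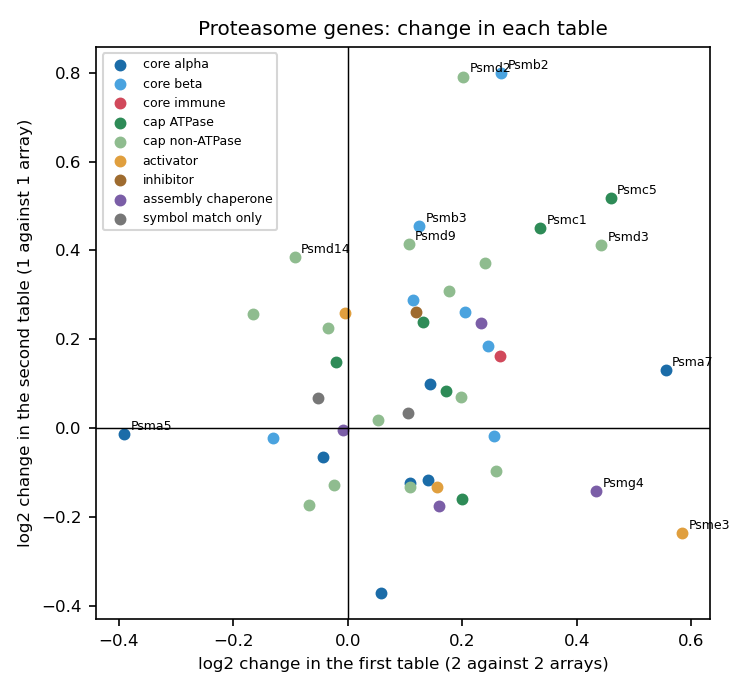
Log2 change of each tested gene in the first table (2 against 2 arrays, horizontal) and in the second (1 against 1 array, vertical), coloured by role. Psmc5, Psmc1 and Psmd3 lie high on both axes, Psmb2 and Psmd2 mainly on the vertical axis, and Psma7, Psme3 and Psmg4 mainly on the horizontal axis.

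Where a gene had several probe sets, they often disagreed. For 18 tested members, 2 or more probe sets had a mean signal of at least 100, and for 11 of these the probe sets had log2 changes of both signs. Psmc6, an ATPase, had 0.14 in the probe set used and -0.32 and -0.42 in the others, whose mean signals were 1039 and 195. Psmd6 had 0.16 and -0.039. Psmb3 had 0.23 and 0.20, Psme3 had 0.31 and 0.35, and Psmd11 lay below 0 in all 5 of its probe sets at that signal, from -0.32 to -0.0061. When all probe sets of a gene were averaged, the members' median was 0.081, with 34 of 45 above 0. Psmc5, Psmd3 and Psmb2 had 1 probe set each, so this check was not available for them.

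**Figure D5:**
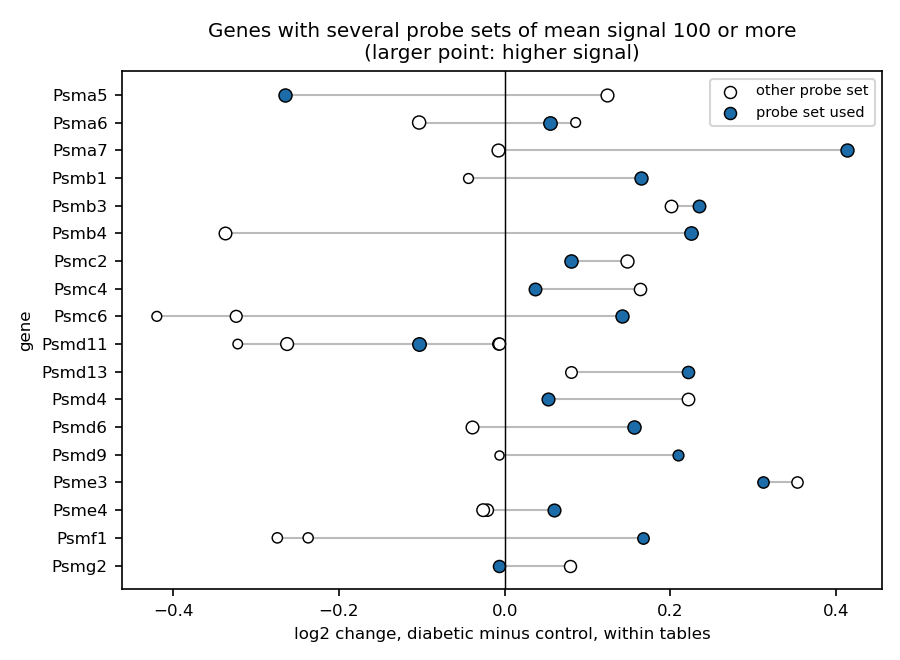
Log2 change, diabetic minus control, of every probe set with a mean signal of at least 100 for the 18 tested genes that have several, with the probe set used filled and a larger point for a higher signal. In 11 genes the points fall on both sides of 0.

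Proteasome genes are known to share control by the transcription factor Nfe2l1, which raises them when proteasome activity is low and binds antioxidant response elements. The stretch of 120 bases before the start is shown for 6 genes, chosen after the values were seen. They set members with a match to that element beside the ATPase genes Psmc5 and Psmc1 and an immune form. In Psmc5 and Psmc1 the diabetic arrays lay above the controls within each table. Sequences come from RefSeq, build GRCm38.p6, on the strand of the gene. Capitals mark TGACNNNGC, the core of the element, or in Psmb8 TTCNNNGAA, the core of the interferon-responsive gamma-activated site.
Psmb5 (chr14:54617996-54618115, minus strand): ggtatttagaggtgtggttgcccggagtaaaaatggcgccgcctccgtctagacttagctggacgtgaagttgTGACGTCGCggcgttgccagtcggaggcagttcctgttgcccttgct
Psmb6 (chr11:70525237-70525356, plus strand): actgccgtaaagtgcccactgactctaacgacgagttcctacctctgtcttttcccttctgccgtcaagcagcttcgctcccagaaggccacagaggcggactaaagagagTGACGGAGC
Psmd9 (chr5:123228070-123228189, plus strand): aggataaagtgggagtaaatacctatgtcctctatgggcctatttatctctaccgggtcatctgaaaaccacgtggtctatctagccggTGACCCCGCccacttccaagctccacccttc
Psmc5 (chr11:106256065-106256184, plus strand): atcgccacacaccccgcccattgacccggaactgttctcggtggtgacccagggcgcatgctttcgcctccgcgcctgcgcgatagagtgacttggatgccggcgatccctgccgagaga
Psmc1 (chr12:100110082-100110201, plus strand): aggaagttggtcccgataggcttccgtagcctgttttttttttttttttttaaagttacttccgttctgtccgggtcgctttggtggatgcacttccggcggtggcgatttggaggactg
Psmb8 (chr17:34198075-34198194, plus strand): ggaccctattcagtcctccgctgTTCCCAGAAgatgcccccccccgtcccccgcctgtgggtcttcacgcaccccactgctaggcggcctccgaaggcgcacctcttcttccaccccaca

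The match began 47 bases before the start in Psmb5, 9 in Psmb6, 31 in Psmd9 and, for the other core, 97 in Psmb8. In Psmc5 and Psmc1 the letters of the first core were not in the stretch shown or in the full window. Of the 48 members, 40 had a promoter window, 250 bases before to 50 after the start. Searched on both strands with overlaps allowed, TGACNNNGC was found in 6 of 40 members, or 15.0%, and in 14% of all genes with a window. The 6 were Psmb5, Psmb6, Psmc6, Psmd12, Psmd9 and Psme4, and their log2 changes ran from -0.095 for Psmb6 to 0.21 for Psmd9. CCAAT, the box bound by NF-Y, was found in 37.5% of the members and 41.1% of all genes, and GGGCGG, the box bound by Sp1, in 57.5% and 38.2%. TTCNNNGAA was found in 7.5% and 9.55%, and GAAANNGAA, the core of the interferon-stimulated response element, in 17.5% and 9.76%. The 7 members with GAAANNGAA were Psmb3, Psmb4, Psmc2, Psmd4, Psmd9, Psme1 and Psmg4, with log2 changes from 0.052 to 0.24. Of all 45 tested members, 36 lay above 0. Among the 7, Psmd4 and Psme1 lay below 0 in the first table, and Psmc2 and Psmg4 in the second. A match is a run of letters and no evidence of binding.

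Around the proteasome, a list of genes of ubiquitin and substrate delivery had 11 of 13 tested genes above 0, with a median of 0.092, and 0.051 without diabetic replicate 2. The tested genes encode conjugating enzymes, ligase parts, carriers of tagged proteins, and Vcp with its cofactors. The other 12 of the 25 listed symbols, among them the activating enzymes Uba1 and Uba6, were not matched to a probe set of their own. The list holds older names, among them Ufd1l beside the tested Ufd1, so this is not a count of genes left unmeasured. Cdc34, a ubiquitin-conjugating enzyme, had 0.40 ± 0.16 (SE), Nploc4, a cofactor of the unfolding enzyme Vcp, 0.38 ± 0.17, and Stub1, a ubiquitin ligase of chaperone clients, 0.37 ± 0.17. The summed signal of the list was 30671 and 30931 on control against 33822 and 34078 on diabetic arrays in the first table. In the second table it was 32827 against 33817. Of the genes with the highest signal, Ube2d3 had 0.21, Vcp 0.018 and Ubqln2 -0.012. Without the second table, Nploc4 had 0.23. At an unadjusted limma p under 0.05 there were 2 genes, Cdc34 and Nploc4, both higher. Of all genes, 3.73% were counted higher and 3.91% lower at that level. After adjustment, 0 of the 13 passed.

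A list of partners of the particle, among them the assembly factor Pomp and the deubiquitinases Usp14 and Uchl5, had 4 of 12 tested genes above 0. Its median was -0.048. The list also took in Pitrm1 and Tpp2, peptidases separate from the particle. Pitrm1, a mitochondrial peptidase on that list, had -0.40 ± 0.16 (SE), Zfand2a, a stress-induced zinc finger protein, -0.37 ± 0.20, and Ecpas, a protein that tethers core and cap, 0.36 ± 0.20. Zfand2a had -0.17 without diabetic replicate 2, and Ecpas 0.13 without control replicate 1. At an unadjusted limma p under 0.05, this list had 1 gene lower, Pitrm1, and 0 higher. The table medians of the list were -0.099 and 0.0075. Regulators of proteasome gene transcription also had 4 of 12 above 0, with a median of -0.041. Nfyc, a subunit of NF-Y, had -0.28 ± 0.17, Ngly1, which removes sugars from Nfe2l1, -0.27 ± 0.16, and Sp1 -0.28 ± 0.17. Nfe2l1 itself, the next in that order, had -0.22 ± 0.17. In the first table alone Sp1 had -0.073, Nfe2l1 -0.089 and Ngly1 -0.43, and the list's median was -0.0071.

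Genes of antigen processing and the interferon response, the setting in which the immune subunits act, lay on both sides of 0. No count above 0 or median is given for this list, because Oas1a passed the filter only through its diabetic values. Tap1 and Tap2, the peptide transporters, and Erap1, a peptide trimming enzyme, had mean signals under 100. Oas1a, an interferon-induced enzyme, had signals of 23.15, 47.3 and 31.1 on control and 333.7, 183.3 and 51.4 on diabetic arrays. It reached the mean signal of 100 only through diabetic arrays 1 and 2, so its values are given without a test. Its log2 changes were 2.09 for the first table and 0.40 for the other. Of the other genes past the filter, B2m, H2-D1, Stat2 and Tapbp lay above 0, from 0.14 to 0.29. H2-K1, Irf1, Ifit2 and Irf9 lay below 0, from -0.23 to -0.087. B2m, the light chain of class I molecules, had 0.29 ± 0.16 (SE), and Irf9, an interferon signalling factor, -0.23 ± 0.19, which became -0.040 without diabetic replicate 2. In limma, 0 genes of these lists passed the adjustment over all genes.

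Markers of neural tissue were present, with all 8 of those on the arrays at a mean signal of at least 100. Their summed signal was 10453 and 11050 on control against 9586 and 9018 on diabetic arrays in the first table, and 10161 against 12845 in the second, so the direction differed between tables. The list's medians were -0.39 and 0.29 in that order. Of the 8 genes, 3 lay above 0 and 5 below. Neurod1, a neuronal differentiation factor, lay below 0 in both tables, with -0.55 ± 0.21 (SE). Dcx, a protein of migrating neurons, had table values of -1.04 and 0.27. Sox2, Nes and Otx2 had 0.23, 0.13 and 0.076, and Pax6, Tubb3 and Hes5 had -0.070, -0.082 and -0.12. Of the other cell types, mesenchyme markers lay below 0 in 10 of 10 genes, with a median of -0.35. First and second table values differed in sign for Lum, -0.66 and 0.65, Pdgfra, -0.64 and 0.014, and Twist1, 0.022 and -0.94. The other mesenchyme genes lay below 0 in both tables. Summed signals of the list were 15111 and 15630 on control against 13247 and 12261 on diabetic arrays in the first table. In the second they were 18558 against 15442. Erythroid markers summed to 41947 and 50973 against 48626 and 56516 in the first table and 49176 against 51396 in the second. Most of that sum came from the globins Hba-x, Hbb-bh1 and Hbb-y. Of the 7 tested erythroid markers, 5 lay above 0 and 2 below. Gata1, Klf1 and Epor had -0.28, -0.31 and -0.32 in the first table and 0.83, 0.46 and 0.39 in the second. Macrophage markers summed to 2054 and 1921 against 1625 and 1176 in the first table, lower in the diabetic group, and 1259 against 1364 in the second, higher there. Of the 7 tested macrophage markers, 5 lay below 0 and 2 above, Lyz2 with 0.056 and Cd68 with 0.14. Cd68 had signals of 120, 121 and 50.9 on control and 141, 136 and 57.8 on diabetic arrays. It reached the mean signal of 100 only with its diabetic arrays, so its place in this count is not a result. Mrc1, a macrophage receptor, had the lowest change of the list and lay below 0 in both tables, with -0.65 ± 0.19 (SE). Endothelial markers summed to 3651 and 3222 against 3242 and 3006 in the first table and 2030 against 2654 in the second. Of these lists, Hba-a1, Aif1, Fcer1g, Ptprc, C1qa and Tie1 had mean signals under 100. The part of these cell types in the proteasome values was not tested. RNA quality, read from the 3′ to 5′ ratio of the Gapdh controls, was 0.725 to 0.812 on control and 0.701 to 0.815 on diabetic arrays.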

How the data were processed

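The deposited values are intensity signals of probe sets on a linear scale, in 2 tables. The submitters' processing notes name the Affymetrix software GCOS. Its version was not given in the sources used here. Per the file headers, chip, scanner and fluidics differed between the tables, and the 6 arrays had 6 distinct run days, so no run day could serve as a block. Of 22690 probe sets, 20380 name 1 gene, 691 several and 1555 none, beside 64 array controls. Only probe sets with 1 gene were named, and 20351 of them matched a RefSeq gene identifier.

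Each array was scaled to a trimmed mean of 500 (2% off each end), which moved values by 0.0363% or less. Tests used log2(signal + 32), a scale that understates changes of dim genes. For every gene the probe set with the highest mean on that scale was kept, and genes reaching a mean signal of 100 entered the test. The tool was limma 3.58.1, run in R 4.3.3 (lmFit, eBayes, two-sided, Benjamini-Hochberg over all 8627 genes, threshold 0.05), with the table as a block and 3 residual degrees of freedom. The median standard error was 0.16 for members, and 3 arrays per group limit the precision. On data simulated for this comparison over 8627 genes, 93.0% of genes changed by a log2 of 1 were recovered, with noise drawn independently between genes. In the same simulated data 10 unchanged genes were called. The largest change of a member was 0.48, so recovery of changes of the members' size was not measured.

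Every member may be named. Array values are given for catalytic and immune subunits, the 4 members of smallest p in the core, the cap and the rest, and members without overlap. From each other list up to 3 genes of smallest p have values, and Nfe2l1 and further genes of these lists were added after their values were seen. Members and lists were chosen with earlier results of these data known. The signal class of 2000 or more, the promoter motifs and the promoters printed were chosen after the values were seen, and the core of the interferon-stimulated response element was first searched in a form 1 letter longer, whose shares are not given here. Alternatives changed the pseudocount, filter, scaling, probe set rule, block, weights and arrays.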

Additional observations from a re-analysis of the deposited data

How the results depend on the processing

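Limma called 0 genes at an adjusted p under 0.05 under every alternative run, and from 414 (without control replicate 1) to 883 (array weights) genes at an unadjusted p under 0.05, against 659. The members' median of 0.14 became 0.11 with no filter on low signal, 0.12 with quantile normalization, 0.081 with the mean of all probe sets and 0.12 with array weights, and lay between 0.11 and 0.15 with each array left out in turn. The core median of 0.16 became 0.092, 0.13, 0.065 and 0.12 in the same order, and ran from 0.096 to 0.19. The median of the activators, inhibitor and chaperones became 0.065 with the mean of all probe sets. Between 33 and 36 members lay above 0 under every setting. Leaving out either array of the second table leaves the first table alone.

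With the replicate number as a block, 627 genes had an unadjusted p under 0.05, 0 passed, and the members' median was 0.14. Deviations of same-numbered arrays correlated at 0.45, 0.43 and 0.74 across genes, but numbers 1 and 2 share a table, and within it the correlation was -0.0091, so the numbers were not treated as pairs. Not every array correlated best with its own number, and for number 3 the match was fixed by the design, as its arrays are the only ones of the second table.

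Signs turned for single members, none of which passed. In the first table alone Psma4 had 0.058, Psmc4 -0.021, Psmd14 -0.093, Psmd4 -0.035 and Psme1 -0.0055. With the mean of all probe sets Psma1 had 0.032, Psma6 -0.13, Psmb4 -0.056, Psmc6 -0.20, Psmd4 -0.020 and Psmg2 0.036. With array weights Psma4 had 0.11, Psmd12 -0.028, Psme3ip1 0.020 and Psme4 -0.0042, and with quantile normalization Psma3 had -0.0092. With each array left out in turn, Psma4 ran from -0.33 to 0.077, Psma6 from -0.015 to 0.14, Psmc2 from -0.016 to 0.20, Psmc3ip from -0.12 to 0.27, Psmc4 from -0.021 to 0.11, Psmd1 from -0.045 to 0.26, Psmd12 from -0.061 to 0.11, Psmd14 from -0.093 to 0.23, Psmd4 from -0.035 to 0.16, Psmd7 from -0.17 to 0.10, Psme1 from -0.0055 to 0.20, Psme3ip1 from -0.052 to 0.036, Psme4 from -0.060 to 0.16, Psmg2 from -0.056 to 0.044 and Psmg3 from -0.019 to 0.16. Among members that kept their sign, Psmb1 ran from 0.067 to 0.25, Psmb3 had 0.12 in the first table alone, Psmd8 ran from 0.14 to 0.45 and Psmg4 from 0.15 to 0.43. The cause was not tested.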
